A study of Mus musculus with 18 samples.

Results

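Some male hybrids between the mouse strains PWD and B6 studied here carry a humanized copy of Prdm9. In them, a set of recombination hotspots placed by the humanized copy has almost all of its DMC1 signal on the B6 chromosome. These B6-biased Hum hotspots are described here. They were chosen from the DMC1 map of the rescue F1 by 4 conditions. The B6 share, the authors' estimate of the fraction of DMC1 signal from the B6 chromosome, was above 0.9. A hotspot centre of Hum/Hum males lay within 1000 bp, no centre of PWD/PWD males lay within 1000 bp, and the H3K4me3 table of the rescue F1 did not mark the bin as overlapping a peak likely to be PRDM9-independent. Of 15019 autosomal rescue F1 hotspots, 12753 had a B6 share and 3463 of these exceeded 0.9. A Hum/Hum centre was near 1494 of them, 1446 of those had no PWD/PWD centre, and 1338 remained after 108 PRDM9-independent bins were removed. The authors' own allele column called 1330 of the 1338 Hum and 8 undetermined.

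The study measured DMC1 and H3K4me3 by ChIP-seq in whole adult testis. The rescue F1 has the genotype PWD/Humanized and is written (PWDxB6)F1, with the mother first by the usual convention, so its B6 chromosomes and Hum allele come from the father. The Hum/PWD F1 is the opposite cross, (B6xPWD)F1, with the genotype Humanized/PWD. Hum/Hum and B6/Hum males are C57BL/6J and have no PWD chromosome, and PWD/PWD males are of the strain PWD/PhJ. The other maps used came from the infertile F1 (PWDxB6, genotype PWD/B6), the reciprocal F1 (B6xPWD, genotype B6/PWD), a B6xCAST F1 (genotype B6/CAST) and B6/B6 males, and none of them carries a Hum allele. Males of the DMC1 samples were about 10 weeks old, except for B6/B6, a library first deposited by other submitters, for which no age is given here. Each DMC1 map rests on 1 library, so no DMC1 difference between genotypes was tested. H3K4me3 had 2 biological replicates in the rescue F1, at 40 to 50 M usable read pairs each, and pseudoreplicates of 1 library in Hum/Hum, at 70 to 80 M. Whole testis mixes meiotic cells with other cells, and fewer cells at the stage of DMC1 loading cannot be told apart from less DMC1 per cell.

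As background, PRDM9 is a zinc-finger histone methyltransferase of early meiosis. Its zinc fingers bind a DNA motif, its catalytic domain places H3K4me3 on the nucleosomes around it, and a double-strand break may follow at the marked site. DMC1 then coats the single-stranded ends and searches the homologous chromosome for a repair template. The zinc fingers differ between mouse alleles, and in the Hum allele they are replaced by those of a human allele, so each allele directs breaks to a different set of sites. Mouse lineages carry sequence differences at many binding sites, and a site intact on only 1 of both homologues gives an asymmetric hotspot.

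As background, the human zinc fingers are known to prefer a C-rich motif of 13 bases that reads CCNCCNT followed by NNCCNC, where N is any base. Of the 8 hottest B6-biased Hum hotspots, 1 held a match to it within 250 bp of the centre, the one near Gm21631. The first 4 sequences below show what a match looks like and are those with the highest rescue F1 heat among B6-biased Hum hotspots with a match within 250 bp of the centre. Samd13, Kank1 and Gm5544 were chosen for this after their values were seen. Heat is the authors' relative DMC1 signal of a hotspot. Sequences are from the B6 reference, mm10, on the strand of the match, and capitals mark the match. The near-Gm21631 hotspot (intergenic, 1433 bp from a pseudogene) is read from chr3:11007433-11007525 on the plus strand. The Samd13 hotspot (intron) is from chr3:146679210-146679302, the Kank1 hotspot (613 bp outside the gene) from chr19:25435115-25435207 and the Gm5544 hotspot (intron) from chr3:97932480-97932572, each on the minus strand.
Gm21631: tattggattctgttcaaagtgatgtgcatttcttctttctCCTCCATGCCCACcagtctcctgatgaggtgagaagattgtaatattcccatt
Samd13: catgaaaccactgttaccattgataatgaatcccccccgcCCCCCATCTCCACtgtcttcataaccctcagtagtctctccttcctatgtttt
Kank1: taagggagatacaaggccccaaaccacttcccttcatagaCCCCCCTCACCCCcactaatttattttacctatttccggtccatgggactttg
Gm5544: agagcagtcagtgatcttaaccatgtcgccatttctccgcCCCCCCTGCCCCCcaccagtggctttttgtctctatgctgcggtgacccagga

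The middles of these matches lay 62, 64, 52 and 142 bp from the hotspot centre in the order given. At Samd13 the heat was 474.7 in the rescue F1, 358.6 in Hum/Hum, 515.5 in B6/Hum and 337 in the Hum/PWD F1. At Kank1 the same 4 values were 451.9, 393.9, 571.2 and 376.8, and at Gm5544 they were 411.4, 458.6, 411.3 and 347.5. All 3 had an H3K4me3 B6 share of 1 in the rescue F1, on 82, 100 and 78 informative reads.

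The hottest 2 of all B6-biased Hum hotspots held no match to the motif within 250 bp. Their central bases on the plus strand are shown for contrast, near Gm6473 from chr1:30777108-30777208 and near 1700054A03Rik from chr19:53093459-53093559.
Gm6473: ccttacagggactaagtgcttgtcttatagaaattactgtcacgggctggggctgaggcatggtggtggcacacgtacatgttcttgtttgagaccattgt
1700054A03Rik: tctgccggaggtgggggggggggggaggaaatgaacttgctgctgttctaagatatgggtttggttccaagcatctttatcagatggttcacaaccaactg

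No match says only that these letters are not in the window searched. Over all 1338, a match within 250 bp on either strand was found at 278, or 20.8% (Wilson 95% interval 18.7 to 23.0). The share was 4.48% in windows of the same length placed 5000 bp to each side. Among 4530 symmetric Hum-type hotspots, which meet the same conditions but have a rescue F1 B6 share from 0.1 to 0.9, it was 23.9% (22.7 to 25.2). Among 244 Hum-type hotspots mainly on the PWD chromosome, with a share below 0.1, it was 16.8% (12.6 to 22.0), read from the B6 reference. Over all rescue F1 hotspots it was 15.2%, and over 3427 hotspots near a PWD/PWD centre and no Hum/Hum centre, called PWD-type below, 3.56%. The nearest match lay a median of 106 bp from the centre, and 29 B6-biased Hum hotspots held more than 1.

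At the open positions of the motif, counted from 1 at its 5′ end, C was the most frequent base at position 3 (52.9%), position 6 (61.5%), position 9 (51.1%) and position 12 (51.1%). G was the most frequent at position 8, with 33.1%. Matches of symmetric hotspots had the same most frequent bases, with 41.7%, 56.1%, 44.9% and 41.6% C and 35.1% G. The first 7 letters alone, CCNCCNT, which every match to the 13-base motif contains, occurred at 79.7% of the B6-biased Hum hotspots, at 79.9% of symmetric and 70.6% of all rescue F1 hotspots, and at 60.0% of the windows 5000 bp from B6-biased Hum hotspots. Hotspots with and without a match to the 13-base motif had median rescue F1 heats of 71.9 and 63.9, and median H3K4me3 enrichments of 1.04 and 0.815 there. Their median H3K4me3 B6 shares were 0.980 and 0.972.

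**Figure D1:**
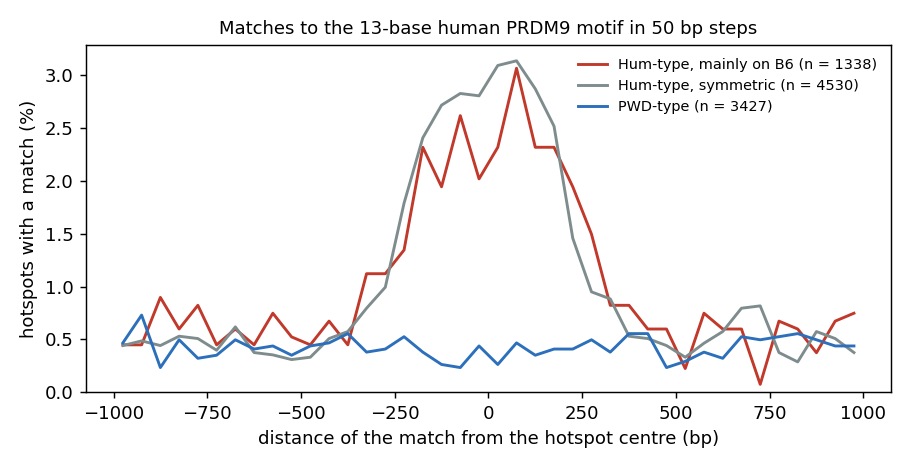
Percent of hotspots (y axis) with a match to the 13-base motif on either strand in each 50 bp step (x axis, distance of the match middle from the centre in bp), for B6-biased Hum, symmetric Hum-type and PWD-type hotspots. Both Hum-type lines rise within about 250 bp of the centre, where 20.8% and 23.9% of hotspots hold a match, and the PWD-type line stays low, with 3.56%.

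The hotspots spread over all 19 autosomes. Counts ran from 43 on chromosome 9 to 112 on chromosome 2, and density from 0.345 per Mb on chromosome 9 to 0.960 per Mb on chromosome 19. They made up between 18.7% (chromosome 12) and 27.3% (chromosome 19) of the Hum-type hotspots with a B6 share on a chromosome. By the GENCODE M21 models, 719 centres (53.7%) lay in introns and 546 (40.8%) between genes. Coding exons held 18 (1.35%), UTRs 24 (1.79%) and non-coding exons 31 (2.32%), and 18 (1.35%) lay within 1000 bp of a protein-coding start. Over all rescue F1 hotspots these shares were 55.1%, 38.1%, 2.30%, 2.22%, 2.28% and 2.57%, in the same order. These hotspots include the PRDM9-independent bins that the rule removed. Symmetric hotspots, without such bins, were intronic in 57.4% and intergenic in 36.3%, and 1.55% lay within 1000 bp of a protein-coding start. Median GC content within 250 bp was 45.5% at B6-biased Hum hotspots, against 44.7% at symmetric hotspots. Their median position was at 57.3% of the chromosome length, and that of symmetric hotspots at 54.5%.

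Heat in the rescue F1 ran from 13.8 to 623.5, with a median of 66.2 (95% interval of the median over hotspots 62.1 to 71.7). In Hum/Hum the same sites had a median of 132 (126 to 139), in B6/Hum 113.4 (105 to 120) and in the Hum/PWD F1 58.2 (54.6 to 62.2). These intervals cover the spread among hotspots of 1 library, not between animals. Symmetric hotspots had medians of 67.9, 119.4, 95.5 and 61.7 in the same 4 maps. So the B6-biased class was the hotter of both in the 2 maps without a PWD chromosome, by medians. In the 2 hybrid maps its median was slightly the lower, but the intervals of both classes overlapped. Those of symmetric hotspots were 65.0 to 70.3 in the rescue F1 and 59.0 to 64.1 in the Hum/PWD F1.

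The B6-biased Hum hotspots held 15.1% of all autosomal heat in Hum/Hum, 14.2% in B6/Hum, 9.31% in the rescue F1 and 7.83% in the Hum/PWD F1. The median log2 heat ratio to Hum/Hum was −0.86 (−0.92 to −0.81) in the rescue F1, −0.20 (−0.23 to −0.16) in B6/Hum and −1.14 (−1.18 to −1.09) in the Hum/PWD F1. For symmetric hotspots these were −0.69, −0.30 and −0.89. Heat is relative within a map, and the summed heat of these 4 maps differed by at most 1.04-fold. Divided by the median heat of symmetric hotspots in each map, the B6-biased ratio was −0.07 in the rescue F1 and −0.17 in the Hum/PWD F1, and it turned to 0.15 in B6/Hum.

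**Figure D2:**
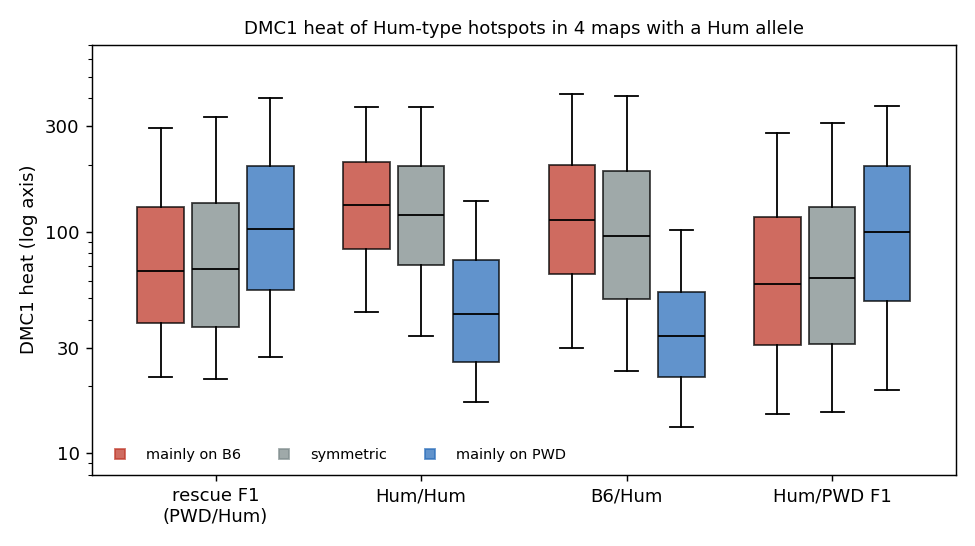
DMC1 heat (y axis, log scale) of Hum-type hotspots in the 4 maps with a Hum allele, split by the rescue F1 B6 share. Boxes give quartiles and medians, whiskers the 5th and 95th percentiles over hotspots of 1 library per map. B6-biased medians are 66.2 in the rescue F1, 132 in Hum/Hum, 113.4 in B6/Hum and 58.2 in the Hum/PWD F1, and the class mainly on PWD is the coolest in Hum/Hum and B6/Hum.

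In the mirror class, mainly on the PWD chromosome, both hybrid medians were above both medians of males without a PWD chromosome. Its 244 hotspots had medians of 103 in the rescue F1, 42.7 in Hum/Hum and 100.0 in the Hum/PWD F1, and the 164 found in B6/Hum had 33.8 there. The rule asks for a Hum/Hum centre, so sites absent from the B6 sequence are missed and the sizes of both classes cannot be compared.

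Nearly all B6-biased Hum hotspots recurred where the Hum allele was present. The B6/Hum map held 1324 of 1338 (99.0%, interval 98.3 to 99.4), beside 95.3% of all rescue F1 hotspots that match Hum/Hum. The Hum/PWD F1 map held 1299 (97.1%, 96.0 to 97.9), beside 95.9% of all rescue F1 hotspots, so this share was close to the background. The 39 not found there had a median rescue F1 heat of 22.1, below the class median of 66.2, but the highest, 83.1, was above it. The 14 not found in B6/Hum had a median Hum/Hum heat of 25.45 and a highest of 422.8. In maps without a Hum allele few had a centre within 1000 bp. The infertile F1 held 19 (1.42%), the reciprocal F1 15 (1.12%), B6xCAST 19 (1.42%) and B6/B6 16 (1.20%). In the same order these maps held 34.5%, 33.5%, 9.25% and 2.34% of all rescue F1 hotspots. Of symmetric Hum-type hotspots they held 0.905%, 0.728%, 1.61% and 1.32%, so the low shares were not particular to the B6-biased class. The rule also left out sites with a PWD/PWD centre. In all, 46 B6-biased Hum hotspots were found in at least 1 of those 4 maps.

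The 8 hottest in the rescue F1 were hot in all 4 maps with a Hum allele. Near Gm6473 (5343 bp from a pseudogene, centre chr1:30777158), the heat was 623.5 in the rescue F1, 499.6 in Hum/Hum, 595.8 in B6/Hum and 510 in the Hum/PWD F1. Near 1700054A03Rik (8993 bp away, chr19:53093509) it was 599.8, 515.6, 582.3 and 587.9. Near Gm10291 (10622 bp from a pseudogene, chr3:78928878) it was 597.7, 810.8, 865.3 and 510.4, with the highest value of the class in both maps without a PWD chromosome. These 3 sites lay between genes.

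Of the other 5, 4 lay in introns. In Nup107, which encodes a nuclear pore protein (chr10:117771515), the 4 heats were 564.2, 449.9, 566.5 and 422.5. In Nell2, a secreted glycoprotein gene expressed in neurons (chr15:95137221), they were 561.2, 394.2, 518 and 405.3. In Nckap5 (chr1:126282199) they were 555.9, 546.1, 650.1 and 517.1, and in B4galt6, a lactosylceramide synthase gene (chr18:20716443), 544.7, 510.9, 600.6 and 501.3. Near Gm21631 (chr3:11007417) they were 544.3, 523.2, 676.8 and 513.2.

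At the other end, the hotspot near AC158127.1 (93594 bp away, chr19:54351386) had a heat of 13.8 in the rescue F1 and 17.7 in Hum/Hum and was not found in B6/Hum or the Hum/PWD F1. Gm37359 (chr3:65858742, intron) had 14.8 in the rescue F1, 74.9 in Hum/Hum and 40.9 in B6/Hum, and the site near 1700081B01Rik (chr5:126681229) 15.1, 30.4 and 18.3. The last 2 were not found in the Hum/PWD F1 either.

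Among those with a Hum/Hum heat of at least 50, the rescue F1 was highest against Hum/Hum in an intron of Slk, a serine/threonine kinase gene (chr19:47589257). The heat there was 166.5 in the rescue F1, 88.2 in Hum/Hum, 108.1 in B6/Hum and 80.7 in the Hum/PWD F1, so the other hybrid stayed below Hum/Hum. The next 2, near 1700029B24Rik (chr3:10238542) and in Sash1 (chr10:8829705), had 134.5 against 71.9 and 139.1 against 80.1. In the Hum/PWD F1 they had 32.1 and 72, again below Hum/Hum.

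The rescue F1 was lowest against Hum/Hum near Gm10125 (chr18:5434911), with 25.7 against 232.1, followed by the site near Gm12691 (chr4:98167908), with 17.2 against 114.3. Aff1, a gene of a transcription elongation factor (chr5:103806926, intron), had 33 against 209.4. In the Hum/PWD F1 these 3 had 32.6, 13 and 29.6, also far below Hum/Hum, while B6/Hum had 145.1, 74.9 and 128.1. The Aff1 site had an H3K4me3 B6 share of 0.756 on 23 informative reads (adjusted p = 0.0631, exact binomial test against 0.5).

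The opposite cross was not used by the rule and repeats the side of the DMC1 signal. Of 1295 B6-biased Hum hotspots with a B6 share in the Hum/PWD F1, 1193 (92.1%, interval 90.5 to 93.5) were above 0.9, where 29.0% of all rescue F1 hotspots found there were. The median share was 0.976, and 1293 exceeded 0.5. Of symmetric hotspots, 206 of 4401 (4.68%, 4.10 to 5.35) exceeded 0.9, with a median of 0.462. At the limit of the rule, rescue F1 shares of 0.901, 0.902 and 0.902 just inside went with Hum/PWD F1 shares of 0.908, 0.984 and 0.984. Just outside, 3 hotspots at 0.9 had 0.882, 0.97 and 0.87. Hum/Hum centres nearest to the distance limit were 953 bp away inside and 1216 bp outside, and PWD/PWD centres 1086 bp away inside and 976 bp outside.

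The lowest Hum/PWD F1 share, and the only one below 0.5, was in an intron of A330076H08Rik, a non-coding transcript (chr7:61932770). Its B6 share was 0.953 in the rescue F1 and 0.186 in the Hum/PWD F1, at heats of 134 and 117.9, and its H3K4me3 B6 share in the rescue F1 was 0.827 on 102 informative reads (interval 0.738 to 0.885). Arhgap22 (chr14:33340700) had 1 and 0.5 at the low heats of 19.4 and 12.7. Dcdc5 (chr2:106124332) had 0.909 and 0.565 at heats of 65.7 and 58.5. The deposited DMC1 shares carry no read numbers, so they have no interval.

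The histone mark, measured in other libraries, lay on the same side. With at least 10 informative reads, 1089 of the 1338 had an H3K4me3 B6 share in the rescue F1. Its median was 0.975, against 0.520 at symmetric hotspots. It was above 0.9 at 822 (75.5%, interval 72.8 to 77.9), where 24.4% of all bins were. An exact binomial test against 0.5, with Benjamini-Hochberg adjustment over 10373 bins at 0.05, gave a lean to B6 at 1009 of the 1089, where 36.8% of all bins leaned to B6. It gave a lean to PWD at 2, where 17.1% of all bins did. Both replicates enter this share together, so the test covers counting error only. Of 3511 symmetric hotspots, 512 leaned to B6 and 292 to PWD.

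**Figure D3:**
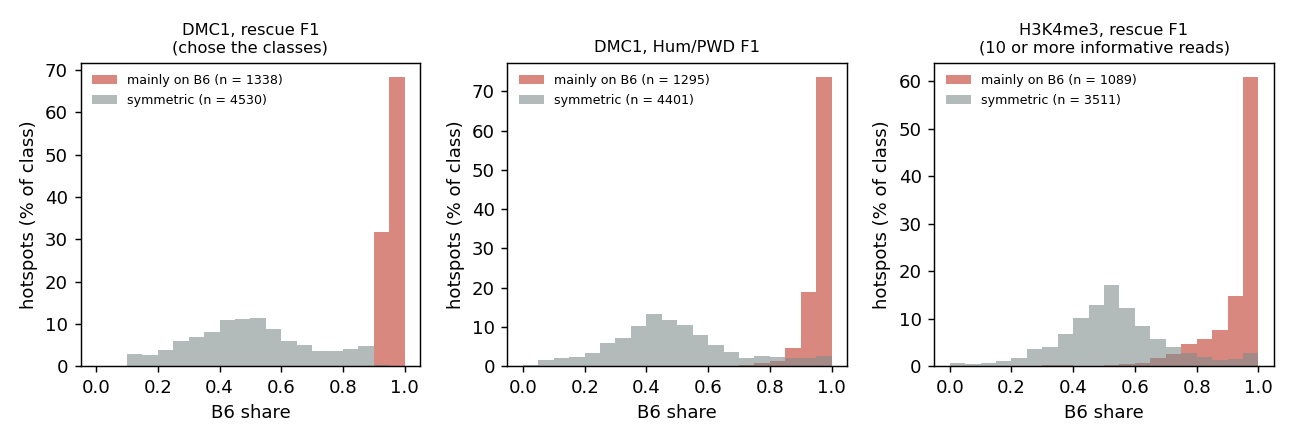
Histograms of the B6 share (x axis, steps of 0.05) as percent of each class (y axis), for B6-biased and symmetric Hum-type hotspots. The left panel shows the DMC1 share that chose the classes, and the other panels show shares the rule did not use, with B6-biased medians of 0.976 in the Hum/PWD F1 and 0.975 for H3K4me3.

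The share of H3K4me3 was below 0.5 at 7 of the 1089, all named here although their values had been seen: Itih2, near Dnajc1, Lhfp, Gm47520, Fhit, Pibf1 and near Gpr180. Near Dnajc1 (chr2:18416858) the H3K4me3 share was 0.0988 on 27 reads (adjusted p = 0.000146, exact binomial test), while the DMC1 share was 1 in both hybrids. In Gm47520 (chr13:90417514) it was 0.306 on 80 reads (adjusted p = 0.00115, exact binomial test), with DMC1 shares of 0.909 and 0.963. For the other 5 the adjusted p of the exact binomial test ran from 0.0636 to 0.735. Their DMC1 heats in the rescue F1 ran from 25.3 to 150.2.

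Presence of the mark was tested with the authors' p-value per bin, adjusted over the bins of each table. In Hum/Hum, 1331 of the 1338 (99.5%) had H3K4me3 enrichment at an adjusted p of at most 0.05, beside 89.3% of all Hum/Hum bins. Symmetric hotspots were close to this, with 4451 of 4530 (98.3%), as were all rescue F1 hotspots that match Hum/Hum (97.1%). In the rescue F1, 1217 of the B6-biased Hum hotspots (91.0%) were enriched, beside 87.9% of all bins and 4177 of 4530 symmetric ones (92.2%). The enrichment value, a ratio to local background coverage, was 0 at 12.

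The amount of H3K4me3 differed more between genotypes than its presence. The median enrichment was 0.861 in the rescue F1 and 1.68 in Hum/Hum, and at symmetric hotspots 1.19 and 1.51. The median log2 ratio of rescue F1 to Hum/Hum was −0.93 (−0.99 to −0.88) for B6-biased and −0.25 (−0.28 to −0.22) for symmetric hotspots. Both rescue F1 replicates gave the lower level. Over B6-biased bins ChIP fragments were 1.32 and 1.51 times the input fragments in replicates 1 and 2, and over symmetric bins 1.91 and 2.19 times. The ratio of both classes was 0.689 in replicate 1 and 0.690 in replicate 2.

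The highest H3K4me3 enrichments of the class were in introns of Ece1 and Mast4 and near Sept5. Ece1 encodes the endothelin-converting enzyme. At its site (chr4:137869215) replicates 1 and 2 had 233 and 277 ChIP fragments and the input 36, and the enrichment was 6.52 in the rescue F1 and 4.71 in Hum/Hum. Its H3K4me3 B6 share was 0.677 on 268 reads and its DMC1 shares 0.906 and 0.897. Mast4, a kinase gene (chr13:102917755), had 86 and 95 ChIP fragments on 13 input fragments, and an H3K4me3 share of 0.755 beside DMC1 shares of 0.913 and 0.899. The site 12759 bp from Sept5 (chr16:18642713) had 244 and 267 fragments on 43, and an H3K4me3 share of 0.703 beside 0.906 and 0.882. At these 3 sites, the H3K4me3 share was below both DMC1 shares.

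Counting only the B6 chromosome matched hybrids and Hum/Hum in the number of chromosomes. For this, H3K4me3 enrichment or heat was multiplied by its B6 share and divided by 0.5 times the Hum/Hum value. That divisor stands for 1 of the 2 B6 chromosomes of Hum/Hum. The Hum alleles were not matched, with 1 beside a PWD allele in the hybrids and 2 in Hum/Hum. Heat is also relative within a map, so the classes can be compared but the level against Hum/Hum cannot be read alone. For H3K4me3, measured in the rescue F1, the median log2 ratio was 0.06 (0.02 to 0.11, 1089 hotspots) at B6-biased and −0.09 (−0.12 to −0.05, 3496 hotspots) at symmetric sites. For DMC1 in the Hum/PWD F1 it was −0.19 (−0.23 to −0.14) at B6-biased and −1.05 (−1.07 to −1.02) at symmetric sites. For DMC1 in the rescue F1 it was 0.07 and −0.77, but this value contains the share that chose the classes. Relative to Hum/Hum, the B6 chromosome of the Hum/PWD F1 carried 1.81 times as much DMC1 heat at B6-biased as at symmetric sites. The B6 chromosome of the rescue F1 carried 1.11 times as much H3K4me3 at B6-biased as at symmetric sites. Each value contains a B6 share that differed between the classes. In the Hum/PWD F1 this share had medians of 0.976 and 0.462, and it repeats the share that chose the classes. Without the share, the Hum/PWD F1 heat ratio to Hum/Hum was lower at B6-biased sites, with log2 medians of −1.14 and −0.89.

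**Figure D4:**
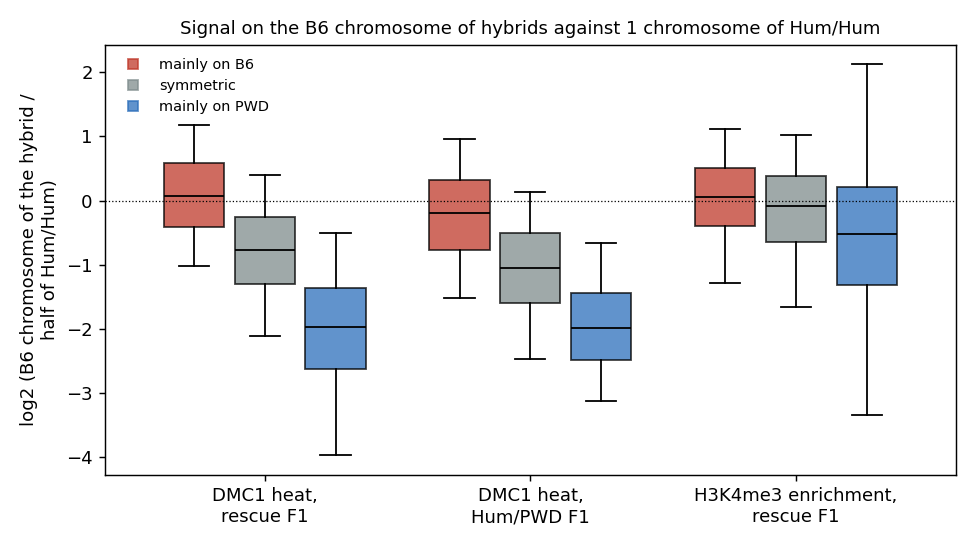
Log2 ratio (y axis) of the signal on the B6 chromosome of a hybrid to 0.5 times the Hum/Hum signal, for DMC1 heat in both hybrids and H3K4me3 enrichment in the rescue F1, by class. Boxes give quartiles and medians, whiskers the 5th and 95th percentiles over hotspots, and the dotted line marks equality. B6-biased medians are 0.07, −0.19 and 0.06, and symmetric medians −0.77, −1.05 and −0.09.

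Heat per H3K4me3 enrichment was also compared between both classes, with no share in the value itself. Its median log2 value in the rescue F1 was 6.50 (6.42 to 6.57, 1326 hotspots with enrichment above 0) at B6-biased and 6.04 (6.01 to 6.07) at symmetric sites, a difference of 0.46, or 1.38-fold. In Hum/Hum, where both chromosomes are B6, the same sites gave 6.38 and 6.40, a difference of −0.02. Heat of the Hum/PWD F1 per rescue F1 enrichment differed by 0.38. Sites mainly on the PWD chromosome had 6.57 (6.37 to 6.66) in the rescue F1, 6.32 in Hum/Hum and 6.42 with Hum/PWD F1 heat. PWD-type hotspots had 6.34 and all hotspots 6.18 in the rescue F1. The higher rescue F1 value was thus not particular to the B6-biased class. With background-subtracted ChIP counts in place of the enrichment, the rescue F1 difference between B6-biased and symmetric sites was 0.74. It was 0.74 and 0.75 with replicate 1 or 2 alone, so its size depends on the measure of H3K4me3. The symmetric limits, drawn on the DMC1 share, come from the same library as the heat.

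The gap was also computed by chromosome and by Hum/Hum heat. In the rescue F1 the B6-biased median lay above the symmetric one on 19 of 19 autosomes, by 0.08 on chromosome 13 to 0.75 on chromosome 17. In Hum/Hum it lay above on 9 of 19. Hotspots were also split into 4 groups at the quartiles of Hum/Hum heat of the B6-biased class. From the coolest to the hottest group the rescue F1 difference was 0.07, 0.41, 0.61 and 0.57, and the Hum/Hum difference −0.27, −0.12, −0.03 and 0.01. Both were lowest in the coolest group, and the rescue F1 difference was highest in the group next to the hottest. In the hottest group, B6-biased sites had median rescue F1 heats of 189.5, against 206.3 at symmetric sites, at enrichments of 1.54 against 2.70.

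**Figure D5:**
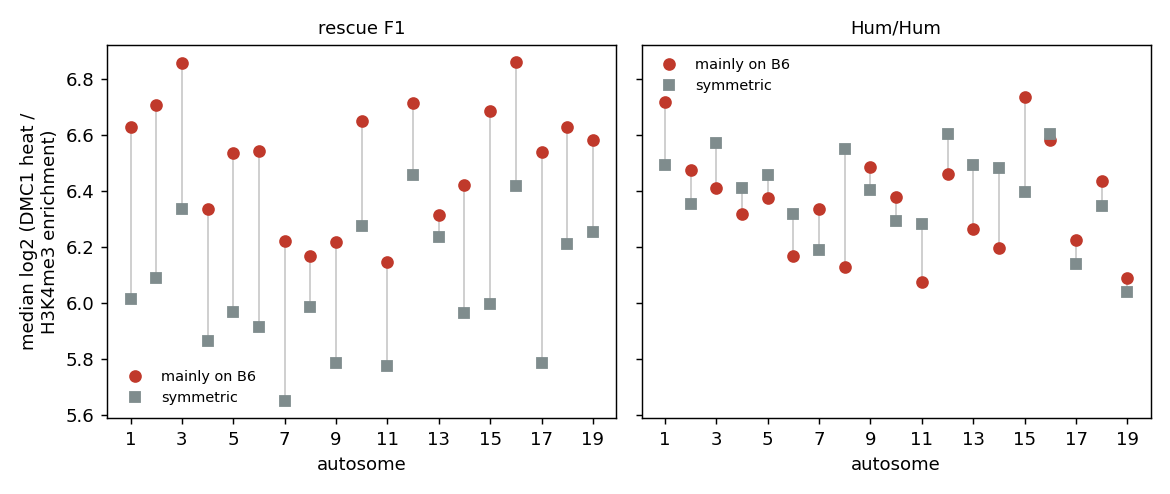
Median log2 heat per H3K4me3 enrichment (y axis) on each autosome (x axis) for B6-biased and symmetric Hum-type hotspots, in the rescue F1 and in Hum/Hum. In the rescue F1 the B6-biased point is the upper one on 19 of 19 autosomes, and in Hum/Hum on 9 of 19.

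Across B6-biased Hum hotspots, heat in the rescue F1 ranked much as in the Hum/PWD F1 (Spearman rank correlation 0.936 over 1299 hotspots) and less as in Hum/Hum (0.813 over 1338). The rank correlation of heat with H3K4me3 enrichment was 0.656 in the rescue F1 and 0.525 in Hum/Hum. Symmetric hotspots gave 0.948, 0.813, 0.723 and 0.606 for the same 4 pairs. These are descriptions across sites of the same libraries, and sites are not replicates.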

How the data were processed

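Alignment was with BWA to mm10, and H3K4me3 also used SAMtools and bedtools, per the submitters' processing notes. How hotspots were called and heat was scaled is not given in the sources used here. Deposited by the authors were DMC1 heat as a relative signal, and the B6 share as a fraction without read numbers. Per the file headers, H3K4me3 counts are ChIP or input fragments in a 1 kb bin centred on each hotspot. The enrichment ratio was estimated by maximum likelihood against local background, the p-value tests it against 0, and the estimated count of informative reads is after background subtraction, per the file headers. The informative reads were rounded for the binomial test.

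The members and lists were chosen with earlier results of these data known. Centres were joined within 1000 bp on autosomes, with SciPy 1.17.1, pandas 2.3.3 and NumPy 2.4.6 under Python 3.11.15, and figures were drawn with Matplotlib 3.10.9. Medians carry order-statistic intervals, shares Wilson intervals, both at 95%, which cover hotspots or counting error of these libraries only. The matching and the binomial test were tested on simulated data. Motifs were read from the GRCm38 reference of RefSeq, the mm10 sequence. Hotspots named are the 8 hottest and 3 coldest, the 3 with the highest and the 3 with the lowest heat ratio of rescue F1 to Hum/Hum (Hum/Hum heat of at least 50), the 3 with the highest H3K4me3 enrichment and the 3 with the lowest Hum/PWD F1 share.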

Additional observations from a re-analysis of the deposited data

How the results depend on the processing

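Each of the 15 values was recomputed under alternatives, 121 in all, of which 100 stayed within the interval of the value (counts: within 1.5 times), 20 moved and 1 reversed. The cause of the moves was not tested. With a B6 share limit of 0.8, the share of B6-biased Hum hotspots above 0.9 was 68.2% for H3K4me3 and 81.8% for Hum/PWD F1 DMC1, and the median log2 heat ratios to Hum/Hum were −0.95 in the rescue F1, −0.24 in B6/Hum and −1.21 in the Hum/PWD F1. With a limit of 0.95 these were 82.8%, 95.8%, −0.73, −0.14 and −1.01, and 98.1% were found in the Hum/PWD F1. Heat divided by the sum of its map gave −1.19 in the Hum/PWD F1. Heat divided by the median of symmetric hotspots gave −0.065, −0.17 and, reversed, 0.15 in the rescue F1, the Hum/PWD F1 and B6/Hum. Heat per H3K4me3 in the rescue F1, B6-biased minus symmetric, was 0.74 with background-subtracted ChIP counts and 0.74 to 0.75 on these counts without replicate 1 or 2. The motif share was 13.5% within 150 bp, 26.5% within 500 bp and 79.7% for the 7-base core, by construction of the window or motif. Match distances of 500 and 2000 bp and the authors' Hum call moved no value in this way. Minimum reads of 5 or 20 and a threshold of 0.01 were tried only on H3K4me3 values that use them, and moved none. Keeping PRDM9-independent bins was tried only on the number of B6-biased Hum hotspots, which was then 1446. That number was 1734 with a B6 share limit of 0.8 and 914 with 0.95, within the wide limit set for counts.

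No paired analysis was possible because the labels give no replicate numbers shared between groups. The DMC1 depth is unknown, and 249 B6-biased Hum hotspots had fewer than 10 informative H3K4me3 reads, with a median rescue F1 heat of 39.5 and enrichment of 0.286, so the allelic mark was not measurable at these weaker sites. The PWD sequence was not analysed here, and motif counts are those of the B6 reference.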

Other observations

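The low share at A330076H08Rik was followed up in the hybrid crosses after its values were seen. Of 12382 rescue F1 hotspots with a B6 share in both the rescue F1 and the Hum/PWD F1, 17 differed by more than 0.5, and 1 of these was a B6-biased Hum hotspot, the site in A330076H08Rik (chr7:61932770), with 0.953 and 0.186. None of the other hotspots among the 17 lay within 1.5 Mb of it. In both crosses the higher share at the A330076H08Rik site was on the chromosome inherited from the father. This was B6 in the rescue F1 and PWD in the Hum/PWD F1. The infertile and the reciprocal F1 have the same reversal of parents and no Hum allele. Of their 14832 shared hotspots with both shares, 5 differed by more than 0.5, and 2 of the 5 lay on chromosome 7 within 1.5 Mb of the A330076H08Rik site. At chr7:60744687 the share was 0.962 with a PWD mother and 0.029 with a B6 mother, at heats of 49.5 and 50.3. At chr7:61462513 it was 0.918 and 0.048, at heats of 17.0 and 23.1.

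At 2 further hotspots the share stayed on the same side in both crosses and the heat differed. Near A230006K03Rik (chr7:61088150) the share was 0 and 0.007 and the heat 29.9 with a PWD mother and 115.3 with a B6 mother. Near Gm3198 (chr7:60530004) the share was 0.964 and 0.865 and the heat 52.2 and 14.9. Both had the higher heat in the cross where their chromosome came from the father. On the other side of A330076H08Rik no share differed by more than 0.5 within 1.5 Mb. The nearest hotspot there, in Gm32061 (chr7:62386862), had shares of 0.695 and 0.575 and heats of 286.7 and 274.4, and that in A26c2 (chr7:62809119) had 0.55 and 0.567 at heats of 49.7 and 57.8. As background, this region of mouse chromosome 7 holds imprinted genes such as Ndn, Magel2 and Snrpn, which are expressed from the paternal copy. Each cross is 1 DMC1 library and the sites were chosen for these values, so nothing was tested.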
